A study of Mus musculus with 18 samples.

Results

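The clustered protocadherins are a family of cell adhesion genes that lie side by side in 3 clusters, alpha, beta and gamma. They were taken from the expression tables by name: every gene whose symbol begins with Pcdha, Pcdhb, Pcdhga, Pcdhgb or Pcdhgc and goes on with a number or the letter c. This gave 58 of 23063 genes, 14 in the alpha, 22 in the beta and 22 in the gamma cluster, all on chromosome 18 between positions 36930285 and 37822134 of the mouse build mm10. The RNA came from thymic epithelium, sorted into populations, of mice 6 to 8 weeks old. Cortical cells (cTEC) and medullary cells of a lo and a hi gate (mTEClo and mTEChi) came from wild-type (WT) mice and from Aire-/- (KO) mice, with 3 libraries in each of the 6 groups. The strain label of all 18 libraries, WT ones included, is that of the Aire mutant line B6.129S2-Airetm1.1Doi/J, the labels do not say which protein the lo and hi gates measure, and they do not say whether the libraries of a group came from separate mice, so p-values measure the spread between these libraries only.

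A clustered protocadherin gene begins with its own promoter and 1 large variable exon that encodes the extracellular cadherin repeats, the membrane span and part of the cytoplasmic tail. Alpha genes splice this exon to constant exons common to their cluster, gamma genes do the same with another set, and beta genes have no constant exons. In neurons, where the family is best known, each cell uses a mixed choice of these promoters, and like proteins bind each other across cell contacts, which lets a neuron tell its own branches from those of other cells. CTCF and cohesin take part in promoter choice, as do DNA methylation and SMCHD1. The last genes of the alpha and gamma clusters, Pcdhac1, Pcdhac2, Pcdhgc3, Pcdhgc4 and Pcdhgc5, are called C-type and are more constantly used. Aire, the other gene this study is about, makes medullary cells of the thymus express many genes otherwise restricted to other tissues.

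The values are RPKM, which the authors computed per gene, so levels can be compared between genes per kilobase. By their deposited intervals all 22 gamma genes, 12 alpha genes and 19 beta genes lay wholly within 1 annotated exon, and for gamma genes this was exon 1. No gamma or beta interval reached a constant exon. The only interval that did was that of Pcdha2, whose level was at most 0.0257 RPKM. The interval of Pcdha10 matched no exon of its own name in the annotation. For the other tested genes, at least 99.1% of the interval lay in exon 1, so their values report the gene's own variable exon. Of the stretches of 100 bases in a gene's interval, at most 10.8% recurred in another family member (Pcdhgb2), so a small part of the reads could belong to a close relative. The depth was 4.54 to 18.1 Gb of aligned bases per library, and 100 aligned bases on a gene of median length were worth 0.00175 to 0.00682 RPKM.

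Aire was listed at 658, 681 and 693 RPKM in WT mTEChi and at 1126, 1001 and 1091 RPKM in KO mTEChi. The Aire value covers the whole gene and the labels do not say which part is deleted, so it checks no genotype label. The cortical marker Psmb11, a proteasome subunit of cTEC, was at 11.3 to 21.8 RPKM in WT cTEC and at 1.40 to 1.95 RPKM in the WT mTEC libraries. Not all cTEC markers went this way. Of 7, 5 were lower and 2 were higher in WT mTEChi than in WT cTEC (limma, adjusted p below 0.05). In WT mTEClo against WT cTEC, 6 were lower and 1 was not called. KO cTEC replicate 1 stood apart: across genes its correlation with the other KO cTEC libraries was 0.933 and 0.940, and every other pair of libraries of a group reached at least 0.969.

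**Figure D1:**
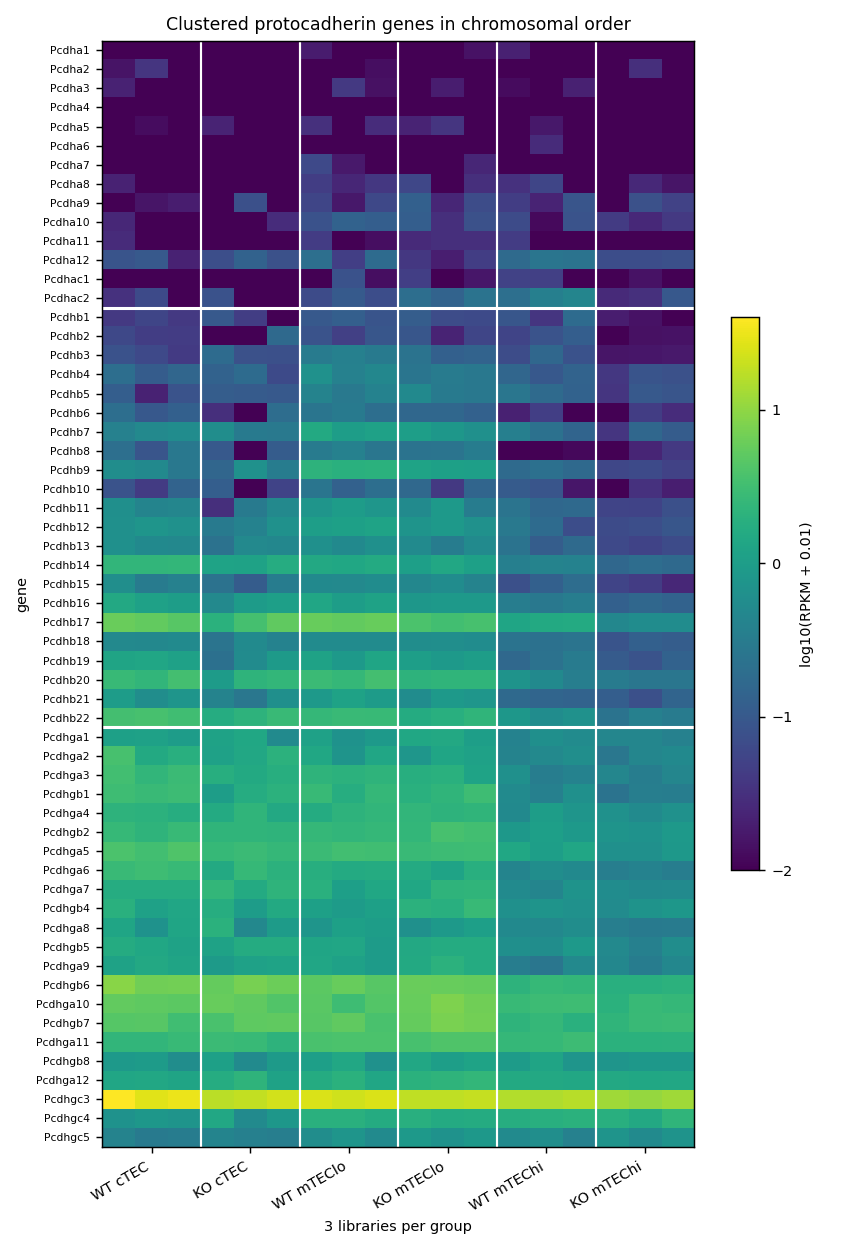
Level of each of the 58 genes (vertical, in chromosomal order) in each of the 18 libraries (horizontal, 3 per group), as log10(RPKM + 0.01) in colour. White lines part the groups and the alpha, beta and gamma clusters, from top to bottom. Most alpha genes were near 0 throughout, and gamma genes were mostly the highest. Most beta and most gamma genes were darker in the mTEChi libraries, with exceptions at the gamma end such as Pcdhgc4.

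The 3 clusters differed widely in level. The gamma cluster was used in all 6 groups: each of its 22 genes reached 0.1 RPKM in every library, and 6 reached 1 RPKM in every library. The beta cluster held 5 genes that reached 0.1 RPKM in every library and none that reached 1 RPKM in all of them. In the alpha cluster 10 of 14 genes never reached 0.1 RPKM, and Pcdha4, whose interval is 52 bases long, was listed at 0 in all libraries. For tests a gene had to reach 0.1 RPKM in at least 3 libraries. This left 46 of the 58 genes, namely all 22 gamma genes, 21 beta genes (all but Pcdhb2) and the 3 alpha genes Pcdha10, Pcdha12 and Pcdhac2. Pcdha10 reached that level only in mTEClo libraries, and Pcdhac2 only in those of WT mTEChi and KO mTEClo. Calls that place these genes higher in those groups thus partly follow from the filter.

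Pcdhgc3, a C-type gene of the gamma cluster, was the highest family member in every group. Its level was 40.0, 28.0 and 31.6 RPKM in WT cTEC, 25.1, 21.7 and 25.1 RPKM in WT mTEClo, and 15.2, 14.9 and 16.7 RPKM in WT mTEChi. The 3 WT populations did not overlap. Pcdhgc3 made up 40.0% ± 2.46 (SD, n = 3) of the summed gamma level in WT cTEC, 35.1% ± 2.07 in WT mTEClo and 40.3% ± 1.33 in WT mTEChi. By the mean over all 18 libraries the next gamma genes were Pcdhgb6, Pcdhga10 and Pcdhgb7, which lie next to each other near the end of the A- and B-type gamma genes. In WT cTEC, Pcdhgb6 stood at 9.13, 6.53 and 6.88 RPKM. By the same mean the lowest gamma genes were Pcdhgc5, at 0.295 to 0.396 RPKM in WT cTEC and 0.371 to 0.600 RPKM in WT mTEChi, and Pcdhga8. The order differed between groups: in WT mTEChi, Pcdhga9 had the lowest gamma mean, 0.354 RPKM, and Pcdhga11 was above Pcdhgb6, at 2.66 and 2.38 RPKM. In the beta cluster the highest genes by that mean were Pcdhb17, Pcdhb22, Pcdhb20 and Pcdhb14, all in the later part of that cluster, and the lowest were Pcdhb1 and Pcdhb2. In WT mTEClo, Pcdhb9 of the first part, at a mean of 2.02 RPKM, was above Pcdhb14, at 1.49 RPKM, and in WT mTEChi Pcdhb8 and Pcdhb6 were the lowest.

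The sum of the 22 beta genes was 21.3 ± 1.29 RPKM (SD, n = 3) in WT cTEC, 24.9 ± 1.10 in WT mTEClo and 5.62 ± 0.351 in WT mTEChi. The WT mTEClo sum was thus 4.43 times the WT mTEChi sum. The sum of the 22 gamma genes was 82.6 ± 10.5 RPKM in WT cTEC, 68.2 ± 2.64 in WT mTEClo and 38.7 ± 1.71 in WT mTEChi, with mTEClo at 1.76 times mTEChi. No library of WT mTEChi overlapped with a library of the other WT populations in either sum. In these bulk libraries, fewer cells that use a gene and less RNA per cell cannot be told apart.

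**Figure D2:**
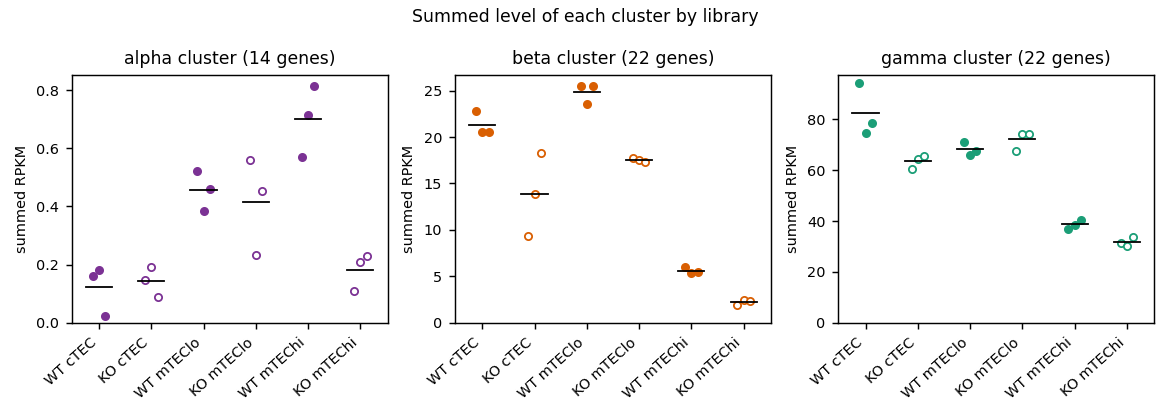
Summed RPKM of the alpha, beta and gamma clusters in each library. Points are libraries (filled WT, open KO), lines are group means, and each vertical axis starts at 0: the beta sums were 5.39 to 6.02 in WT mTEChi and 23.6 to 25.6 in WT mTEClo, and the gamma sums were 37.1 to 40.5 and 65.8 to 71.0.

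In WT mice, 38 of the 46 tested family members were lower in mTEChi than in mTEClo and 1 was higher, at an adjusted p below 0.05, the threshold for a call throughout (limma on log2(RPKM + 0.1), Benjamini-Hochberg over 19451 genes). Among all tested genes, 31.1% were lower and 41.6% were higher. The fall took in 20 of 21 beta genes, 17 of 22 gamma genes and 1 of 3 alpha genes, Pcdha10. Since Pcdha10 passed the filter only through mTEClo libraries, its call as lower in mTEChi is no support of its own. The median difference was -1.73 for the beta genes and -0.88 for the gamma genes on the log2 scale, against 0.12 for all tested genes. With quantile normalization, which forces all libraries onto 1 distribution, 45 members were lower and none was higher at adjusted or unadjusted p below 0.05. The direction was thus kept for the beta and gamma genes that had been called. That setting turned the background to 39.3% lower and 29.6% higher.

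Pcdhb9 fell most. It stood at 2.11, 1.95 and 2.01 RPKM in WT mTEClo and at 0.167, 0.204 and 0.161 RPKM in WT mTEChi, a log2 difference of -2.94 ± 0.31 (SE, adjusted p = 3.88e-07). All 3 mTEClo libraries were far above all 3 mTEChi libraries. The next largest falls were Pcdhb20 at -2.33 ± 0.29, Pcdhb12 at -2.24 ± 0.28, Pcdhb21 at -2.17 ± 0.25 and, in the gamma cluster, Pcdhga3 at -2.07 ± 0.22. The most abundant beta gene, Pcdhb17, went from 5.86, 5.42 and 5.76 RPKM to 1.31, 1.51 and 1.59 RPKM (-1.88 ± 0.24, adjusted p = 2.84e-06). Pcdhgc3 fell by less, -0.62 ± 0.12 (adjusted p = 0.000227). The added 0.1 RPKM shrinks the falls of low genes in this ranking. Pcdhb8 went from 0.306, 0.368 and 0.252 RPKM in WT mTEClo to 0, 0 and 0.00199 RPKM in WT mTEChi. Its log2 difference was -2.01, although its fall was larger in proportion than that of Pcdhb9.

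Several genes of the gamma end were not called on the deposited RPKM scale. These non-calls depended on the scaling: with quantile normalization all 22 gamma genes were called lower in WT mTEChi. In that setting the log2 difference was -1.35 for Pcdhga12, -1.63 for Pcdhgb8 and -2.07 for Pcdhgc5. That of Pcdhgc4 turned from 0.017 to a negative value. Pcdhgc4 was at 1.94, 1.95 and 1.63 RPKM in WT mTEClo and at 1.72, 1.89 and 1.97 RPKM in WT mTEChi, and these ranges overlapped. Among the members that were not called, Pcdhga12 had the highest overall level, with 1.64, 2.01 and 1.34 RPKM against 1.56, 1.49 and 1.45 RPKM. Its log2 difference was -0.12 (adjusted p = 0.571). Pcdhgb8 also lay in this stretch and was not called. The 1 member called higher was Pcdhac2, the last gene of the alpha cluster, at 0.0555, 0.0956 and 0.0621 RPKM in WT mTEClo and 0.199, 0.347 and 0.421 RPKM in WT mTEChi (1.27 ± 0.27, adjusted p = 0.00052). All 3 mTEChi libraries were higher, but the levels were low. The gene reached 0.1 RPKM only in the WT mTEChi and KO mTEClo libraries, so it was tested only through groups where it was high. With quantile normalization its difference was -0.43 and it was not called.

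Against WT cTEC, 33 members were lower in WT mTEChi and 4 were higher, where all tested genes gave 31.8% lower and 46.6% higher. This comparison shares the WT mTEChi libraries with the previous one, so they are not independent. The largest falls were Pcdhga3 (-2.43 ± 0.22), Pcdhb14 (-2.36 ± 0.17), Pcdhgb1 (-2.34 ± 0.27), Pcdhga6 (-2.29 ± 0.19) and Pcdhb20 (-2.27 ± 0.29). Pcdhb14 went from 2.35, 2.31 and 2.41 RPKM in cTEC to 0.346, 0.400 and 0.388 RPKM in mTEChi. The members called higher were Pcdhac2 (1.73), Pcdhgc4 (1.24), Pcdha12 (0.997) and Pcdhb5 (0.79). All 4 lost that call with quantile normalization, where each value was below 0, and Pcdha12 (-0.92) and Pcdhb5 (-1.04) were called lower. In that setting 43 members were lower and none was higher, beside 42.8% lower and 32.6% higher among all tested genes.

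The marker genes of other cell types moved between these populations as well. The summed level of 7 fibroblast markers was 401 to 461 RPKM in WT cTEC, 82.2 to 109 in WT mTEClo and 44.5 to 49.3 in WT mTEChi. In WT cTEC most of it was Dcn, a matrix proteoglycan, at 358 to 410 RPKM. Between WT mTEClo and WT mTEChi, 4 of these 7 markers fell and 3 rose. The summed level of 10 neuron markers was, among the WT groups, highest in mTEChi, with 28.2 to 38.4 RPKM in WT cTEC, 62.7 to 74.7 in WT mTEClo and 118 to 125 in WT mTEChi. Most of it was Syt1, a synaptic vesicle protein, at 80.6 to 88.2 RPKM in WT mTEChi. Of these 10 markers, 5 rose and 3 fell between WT mTEClo and WT mTEChi. All 5 Schwann cell markers rose, from a sum of 5.22 to 6.00 RPKM to one of 20.3 to 23.1 RPKM. Of 5 endothelial markers 2 fell and none rose, with sums of 15.7 to 20.5 and 8.23 to 12.7 RPKM. Of 8 haematopoietic markers 4 rose and none fell, with sums of 16.2 to 28.5 and 33.5 to 52.4 RPKM. These counts stand beside 41.6% higher and 31.1% lower among all tested genes from WT mTEClo to WT mTEChi. No marker of these lists was at 0 in all 3 libraries of any group. The part of such cells in the protocadherin levels was not tested.

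WT mTEClo and WT cTEC differed less, and in the beta cluster the log2 differences varied with position. Here 9 members were higher in mTEClo and 5 were lower, against 24.6% higher and 18.2% lower among all tested genes, so the family's shares of 19.6% and 10.9% were no larger than those of the genome. The 5 beta genes called higher were Pcdhb3, Pcdhb4, Pcdhb5, Pcdhb7 and Pcdhb9, all in the first part of the cluster. They were 5 of the 12 tested genes among Pcdhb1 to Pcdhb13. Pcdhb9 was at 0.582, 0.505 and 0.265 RPKM in cTEC, below all mTEClo libraries (1.996 ± 0.31, adjusted p = 7.81e-05). Pcdhb5 followed at 1.48 ± 0.26, Pcdhb3 at 1.47 ± 0.22 and Pcdhb4 at 1.25 ± 0.24. The 1 beta gene called lower, Pcdhb14, lay further along (-0.63 ± 0.17, adjusted p = 0.00637), with 1.38 to 1.57 RPKM in mTEClo.

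Along the 21 tested beta genes, the log2 difference between WT mTEClo and WT cTEC had a Spearman correlation of -0.764 and a Pearson correlation of -0.705 with the gene's place in the cluster. For WT mTEChi against WT cTEC the Spearman value was -0.816, and for WT mTEChi against WT mTEClo it was -0.434. Along the 19 A- and B-type gamma genes the values were 0.544, 0.705 and 0.618 in the same order. The points are neighbouring genes measured in the same libraries, and the 3 comparisons share libraries with each other, so these values describe the order and carry no p. In levels, Pcdhb14 to Pcdhb22, a division chosen after the values were seen, made up 84.3% ± 0.661 (SD, n = 3) of the beta sum in WT cTEC, 68.5% ± 1.44 in WT mTEClo and 72.3% ± 4.34 in WT mTEChi. From WT mTEClo to WT mTEChi the summed level was lower in both stretches: the mTEClo sum was 4.99 times the mTEChi sum for Pcdhb1 to Pcdhb13 and 4.21 times for Pcdhb14 to Pcdhb22. These ratios are larger for the first stretch, whereas the Spearman value of -0.434 has the later genes falling more. Genes of the first stretch were mostly lower in level, and the added 0.1 RPKM shrinks log2 differences of low genes. Place and level are thus mixed in the Spearman values. Pcdhb1 to Pcdhb13 summed to 3.35 ± 0.337 RPKM in WT cTEC and 7.82 ± 0.476 RPKM in WT mTEClo, while Pcdhb14 to Pcdhb22 summed to 17.3 to 19.1 RPKM and 16.2 to 17.9 RPKM in these groups, which overlap.

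**Figure D3:**
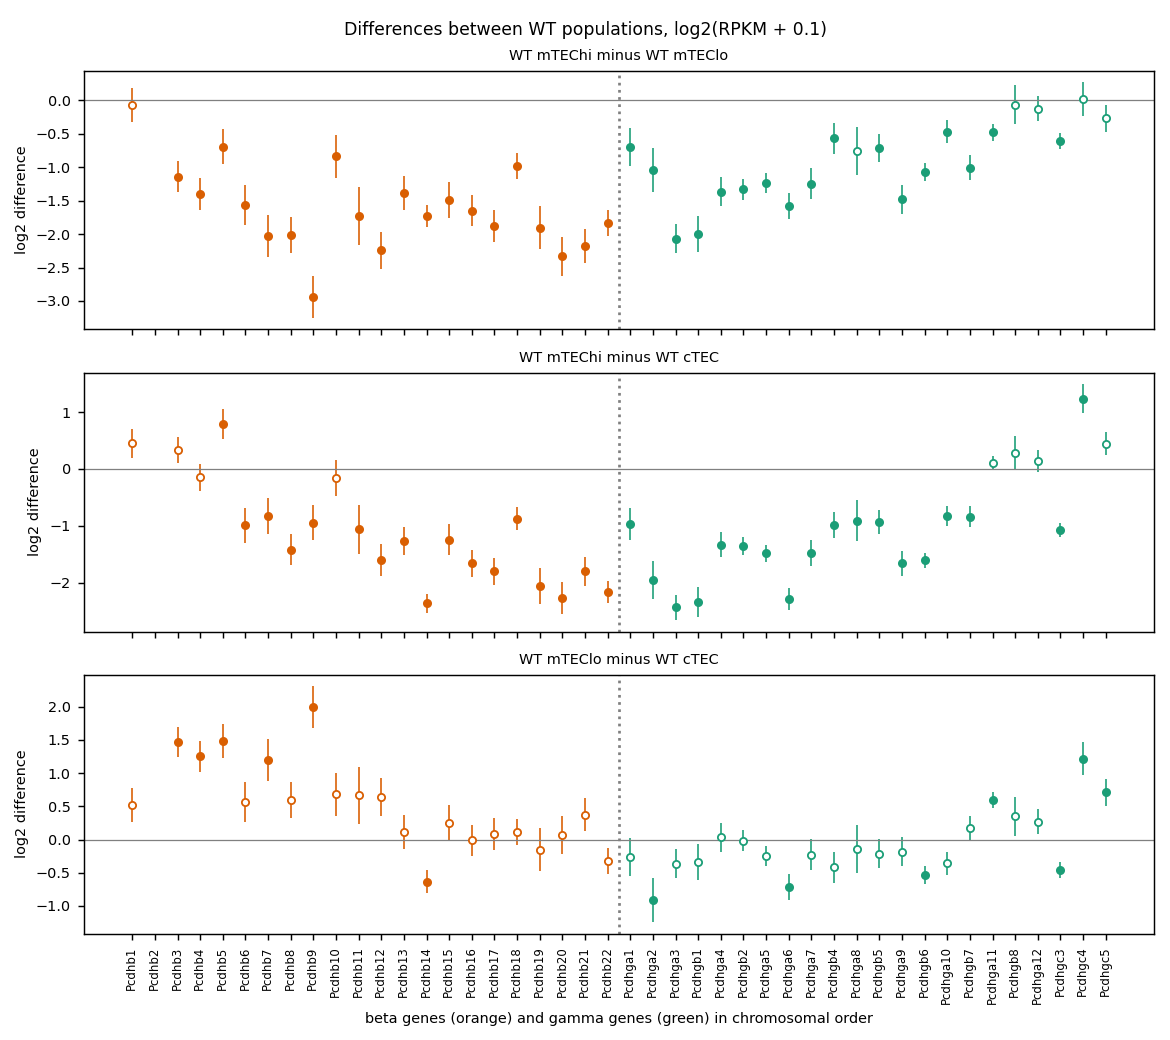
Log2 differences of log2(RPKM + 0.1) between WT populations for the 21 tested beta genes (orange) and the 22 gamma genes (green) in chromosomal order, with SE from limma. Filled points passed an adjusted p of 0.05: in the top panel 20 beta genes and 17 gamma genes are filled and lie below 0, and in the bottom panel the filled beta genes above 0 are all in the first part of the cluster.

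The C-type gamma genes did not move together between WT mTEClo and WT cTEC. Pcdhgc3 was lower in mTEClo (-0.45 ± 0.12, adjusted p = 0.0056), while Pcdhgc4 was higher (1.22 ± 0.25, adjusted p = 0.000864), as was Pcdhgc5 (0.71 ± 0.20, adjusted p = 0.00937). Pcdhgc4 stood at 0.682, 0.785 and 0.728 RPKM in WT cTEC, below all WT mTEC libraries. Its level was 1.71% to 2.81% of that of Pcdhgc3 in WT cTEC, 6.49% to 8.96% in WT mTEClo, 11.4% to 12.6% in WT mTEChi and 13.8% to 18.4% in KO mTEChi. These 4 ranges do not overlap, while that of KO cTEC, 2.72% to 8.50%, overlapped with those of WT cTEC and WT mTEClo, and that of KO mTEClo, 8.52% to 10.3%, with that of WT mTEClo. A ratio within a library does not change with a factor applied to the whole library. Pcdhac1 was too low to be tested, with at most 0.0712 RPKM in any library.

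In mTEChi the comparison of KO with WT asks what Aire's absence does to these genes. Of the 46 tested members, 18 were lower in KO mTEChi and none was higher at adjusted or unadjusted p below 0.05. This share of 39.1% is below the 52.8% of all tested genes that were lower (9.57% were higher), and the median of the members, -0.47, is close to that of all tested genes, -0.39, so the count is not a result about the family. It also depended on the scaling. With quantile normalization no member was lower at adjusted or unadjusted p below 0.05 and 31 were higher, or 67.4% of them, where all tested genes gave 24.7% lower and 31.2% higher in that setting. It moved the median of all tested genes to 0.08, the median of the beta genes from -0.76 to 0.60 and that of the gamma genes from -0.25 to 1.41. On the deposited scale the members called lower were 13 beta, 3 gamma and 2 alpha genes.

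On the log2(RPKM + 0.1) scale the largest of these falls was that of Pcdhac2, from 0.199, 0.347 and 0.421 RPKM in WT mTEChi to 0.0167, 0.0221 and 0.0871 RPKM in KO mTEChi (-1.57 ± 0.27, adjusted p = 0.000105). It was followed by Pcdhb17, from 1.31, 1.51 and 1.59 RPKM to 0.456, 0.551 and 0.546 RPKM (-1.35 ± 0.24, adjusted p = 0.000134). Pcdhb22 fell by 0.95, Pcdha12 by 0.94 and Pcdhb9 by 0.90 on the log2 scale. Of these genes, Pcdhac2 passed the filter only through the WT mTEChi and KO mTEClo libraries, so its fall was favoured by the filter. With quantile normalization the difference was 0.11 for Pcdhac2, 0.03 for Pcdhb17, 0.83 for Pcdhb22, 0.53 for Pcdha12 and 0.45 for Pcdhb9, so the direction of all 5 turned. Of these only Pcdhb22 was called higher in that setting (limma, adjusted p = 0.0042), and the others were not called. Pcdhgc3 was called lower on the deposited scale, at 12.2, 10.8 and 12.1 RPKM in KO mTEChi (-0.41 ± 0.12, adjusted p = 0.0071). With quantile normalization its difference was -0.22 and it was not called. Pcdhgb6, the highest member that was not called, was at 2.14, 2.56 and 2.43 RPKM in WT and 1.88, 1.87 and 2.09 RPKM in KO mTEChi (-0.28, adjusted p = 0.0861).

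**Figure D4:**
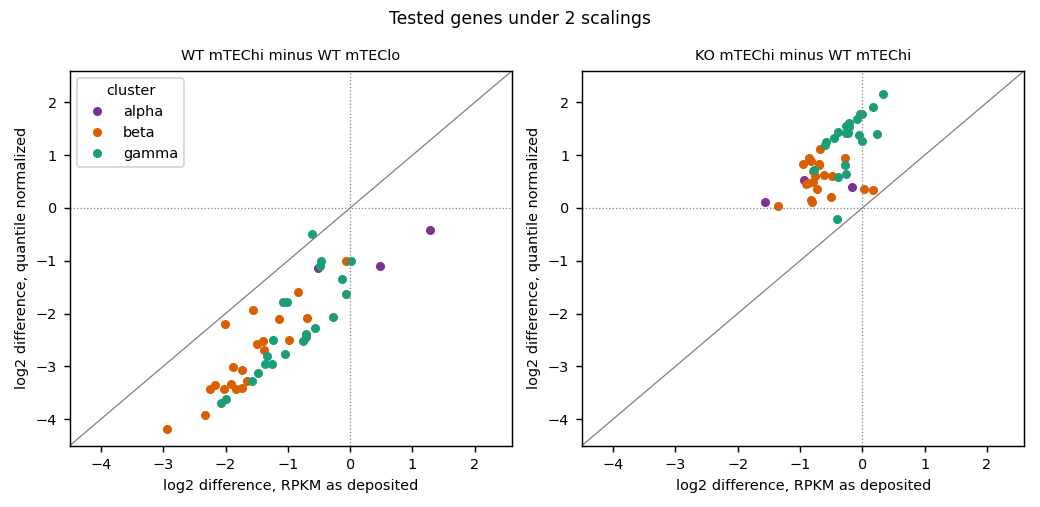
Log2 differences of the 46 tested genes on the deposited RPKM scale (horizontal) and after quantile normalization (vertical), with the line of equality in grey. For WT mTEChi against WT mTEClo both scales put the beta and gamma genes below 0 with few exceptions, while for KO against WT mTEChi the points lie mostly below 0 on the horizontal and above 0 on the vertical axis.

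Within KO mice, too, the family was lower in mTEChi than in mTEClo: 41 of 46 members were lower and none was higher at adjusted or unadjusted p below 0.05, beside 43.7% lower and 23.4% higher among all tested genes. All 21 tested beta genes and 19 of 22 gamma genes were among them, and quantile normalization also gave 41 lower, beside 33.7% of all tested genes. The beta sum was 17.5 ± 0.229 RPKM (SD, n = 3) in KO mTEClo and 2.21 ± 0.279 RPKM in KO mTEChi. Pcdhb9 again had the largest fall on the log2(RPKM + 0.1) scale, from 1.21, 1.12 and 1.07 RPKM to 0.0491, 0.0549 and 0.0415 RPKM (-3.05 ± 0.31, adjusted p = 2.63e-07). Pcdhgb1 (-2.67), Pcdhb20 (-2.65), Pcdhb17 (-2.55) and Pcdhb19 (-2.41) came next. Pcdhgc4 was not called, with 1.87, 1.58 and 1.63 RPKM in KO mTEClo and 1.89, 1.49 and 2.23 RPKM in KO mTEChi.

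**Figure D5:**
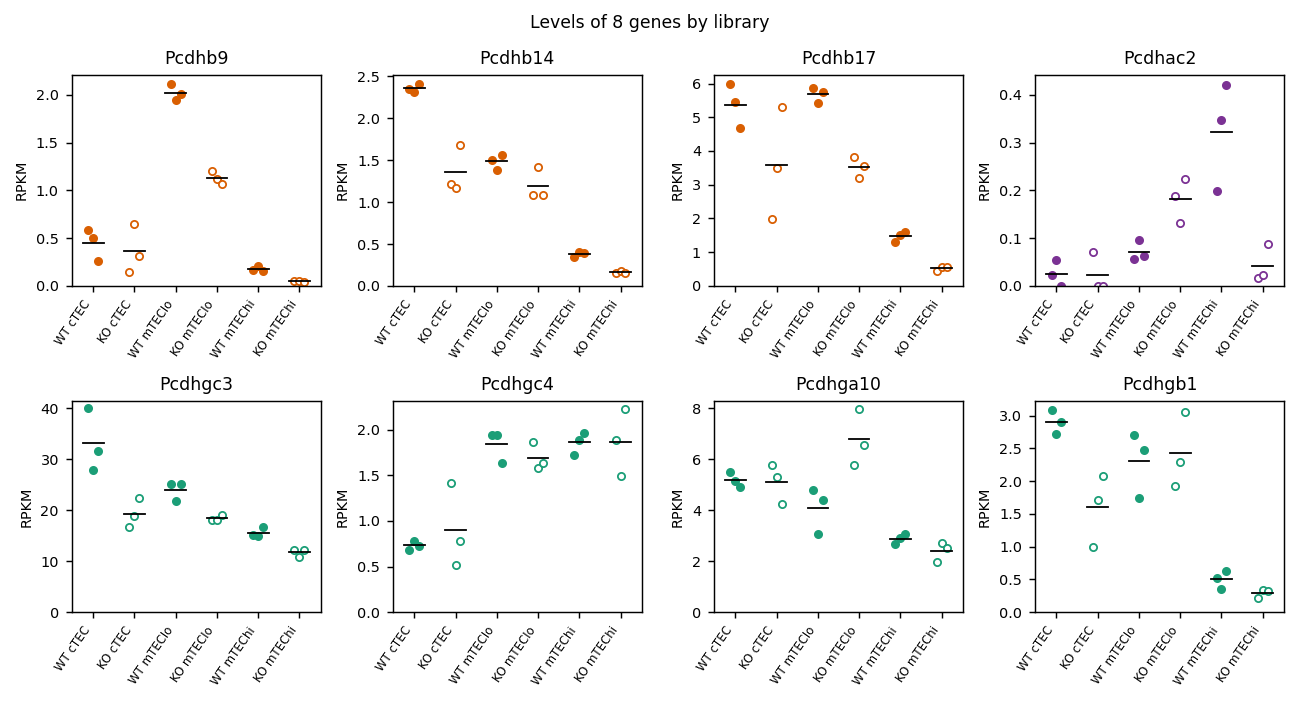
RPKM of 8 family members by library, filled for WT and open for KO, with group means as lines and vertical axes from 0. Pcdhb9 was at 1.95 to 2.11 RPKM in WT mTEClo and at no more than 0.653 RPKM in any cTEC or mTEChi library, and Pcdhgc4 had its lowest group mean in WT cTEC.

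The genotype difference itself was compared between the gates with an interaction term. For 8 of 46 members it was lower in mTEChi than in mTEClo and for none higher at adjusted or unadjusted p below 0.05, beside 40.9% lower and 6.01% higher among all tested genes. With quantile normalization none was lower and 32 were higher, beside 18.3% lower and 23.4% higher among all tested genes, so the direction depended on the scaling. Pcdhac2 had the largest value (-2.28 ± 0.38), with a KO level of 0.189, 0.132 and 0.223 RPKM in mTEClo, above all WT mTEClo libraries. This gene passed the filter only through WT mTEChi and KO mTEClo, the groups whose high values make the interaction negative.

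In mTEClo, KO and WT differed in few members: 3 were lower and 2 were higher, beside 8.04% lower and 7.93% higher among all tested genes. Pcdha12 (-0.84 ± 0.27), Pcdhb3 (-0.72 ± 0.22) and Pcdhgc3 (-0.37 ± 0.12) were called lower. Pcdhgc3 was at 18.1, 18.2 and 19.2 RPKM in KO mTEClo, below all WT mTEClo libraries. Pcdhgb4 was higher, from 1.09, 0.945 and 1.11 RPKM to 2.04, 1.88 and 2.63 RPKM (0.98 ± 0.23, adjusted p = 0.01), and so was Pcdhga10, from 4.79, 3.07 and 4.40 RPKM to 5.77, 7.99 and 6.57 RPKM (0.73 ± 0.17, adjusted p = 0.00971). The lower count went to 0 without WT mTEClo replicate 1 or 3 or KO mTEClo replicate 2 or 3 and to 1 without KO mTEClo replicate 1, and the higher count went to 1 without KO mTEClo replicate 2.

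In cTEC, 8 members were lower in KO and none was higher at adjusted or unadjusted p below 0.05, where all tested genes gave 6.76% lower and 13.3% higher. They were the beta genes Pcdhb14, Pcdhb19, Pcdhb21 and Pcdhb22 and the gamma genes Pcdhga3, Pcdhga5, Pcdhgb1 and Pcdhgc3. Pcdhgc3 went from 40.0, 28.0 and 31.6 RPKM to 16.7, 18.9 and 22.5 RPKM (-0.77 ± 0.12, adjusted p = 0.000276), and no libraries overlapped. Pcdhb14 went from 2.35, 2.31 and 2.41 RPKM to 1.21, 1.17 and 1.68 RPKM (-0.77 ± 0.17, adjusted p = 0.00422). Pcdhb19 had the largest difference, -1.20 ± 0.32, with 0.207, 0.533 and 0.900 RPKM in KO cTEC. The beta sum of the KO cTEC libraries spread from 9.31 to 18.3 RPKM, and the lowest was replicate 1.

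This count rested on single libraries and on the fit. It was 2 without KO cTEC replicate 1, 15 without KO cTEC replicate 3, and 3 without WT cTEC replicate 1 or 3. With only the cTEC groups in the fit it was 0, with 7 lower at unadjusted p below 0.05. The KO cTEC libraries also differed from WT cTEC in markers. Aire was at 95.6, 35.9 and 27.0 RPKM against 2.09, 3.95 and 7.39 RPKM. Of 9 mTEC markers, 5 were higher and none was lower. From low to high, the summed fibroblast markers were at 188, 412 and 422 RPKM against 401, 434 and 461 RPKM. Only the lowest of these KO values lay outside the WT range. The part of these cells in the protocadherin differences was not tested.

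Genes related to the family by structure, place or function were set beside it, to be read against the 31.1% lower and 41.6% higher, with a median of 0.12, of all tested genes from WT mTEClo to WT mTEChi. Of 11 tested protocadherins outside the clusters, 6 rose and 2 fell from WT mTEClo to WT mTEChi. Pcdh9 (2.92 ± 0.17) and Pcdh10 (2.48 ± 0.21) rose, Pcdh18 (-1.86 ± 0.17) and Pcdh20 (-1.50 ± 0.39) fell, and Pcdh7, the most abundant, was not called. Pcdh10 was at 0.480, 0.429 and 0.408 RPKM in WT mTEClo and 2.73, 2.75 and 3.25 RPKM in WT mTEChi. Of 21 tested genes that flank the clusters on chromosome 18 (10 on each side) or lie between their members, 9 fell and 3 rose, with a median of -0.28. Among the neighbours that were called, the largest fall was that of Hdac3, a histone deacetylase, by 0.61 ± 0.07, and Hars2, a mitochondrial tRNA ligase, fell by 0.42 ± 0.08. The 20 beta genes that fell did so by 0.70 to 2.94. Taf7, a transcription factor subunit whose gene lies between the beta and gamma clusters, was not called (0.10 ± 0.10).

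Of 17 genes for factors known to act in promoter choice, 10 fell and 4 rose from WT mTEClo to WT mTEChi, with a median of -0.30. Ctcf was at 27.7, 25.6 and 26.4 RPKM in WT mTEClo and 19.0, 16.9 and 19.4 RPKM in WT mTEChi (-0.53 ± 0.07, adjusted p = 3.32e-06). Smchd1, which helps silence protocadherin promoters, fell by 0.67 ± 0.08, and Stag1, a cohesin subunit, by 1.10 ± 0.13. Dnmt3a (0.61 ± 0.07) and Pds5b (0.98 ± 0.15) rose. Of 14 signalling and cleavage partners of the proteins, 9 fell and 2 rose: Ptk2, the focal adhesion kinase, fell by 0.82 ± 0.08 and its relative Ptk2b rose by 1.56 ± 0.21. Fyn, a kinase, was at 2.68, 3.43 and 2.92 RPKM in WT mTEClo and 2.84, 2.33 and 2.92 RPKM in WT mTEChi and was not called.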

How the data were processed

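RNA-seq tables of 18 libraries were used, 1 per library. The authors deposited, per gene, an RPKM value and a signal column of aligned bases on the gene, per the file contents; the submitters' processing notes name CASAVA 1.8.2 and the build mm10. How the authors treated reads that match several genes is not given in the sources used here. Groups were taken from the labels. RPKM values, which are no counts, were tested as log2(RPKM + 0.1) with limma 3.58.1 (R 4.3.3; trend, 6 group means, 3 libraries each) on 19451 genes that reached 0.1 RPKM in at least 3 libraries, in 8 comparisons, with Benjamini-Hochberg adjustment over all genes and a threshold of 0.05. Such differences understate the change of genes near 0.1 RPKM. The steps were tested on simulated data for KO against WT mTEChi. They called 93% of 4-fold changes, 72% of 2-fold changes and 0.08% of unchanged genes. Changes were simulated only in genes above a minimum mean level, so the lowest members are not covered. Intervals were set against GENCODE annotation of the same build. Aligned bases were used for depth only.

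The members and gene lists were chosen with earlier results of these data known. Genes were named by rule: C-type genes, the 4 highest and 2 lowest of each cluster, the 5 largest called changes in each direction per comparison and the highest member not called, and, from other lists, up to 3 called genes per direction and the highest not called; other genes were named after their values were seen. Alternatives were pseudocounts of 0.01 and 1, no filter, a filter of 1 RPKM, quantile normalization, centring on 12 housekeeping genes, only the groups compared, a replicate block, and each library left out.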

Additional observations from a re-analysis of the deposited data

Results flagged for a closer look

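For 8 members, the difference between KO and WT in mTEChi was itself different from that in mTEClo (interaction term, limma, adjusted p below 0.05), and in each the log2 difference was the lower one in mTEChi. Among all tested genes 40.9% had such a lower interaction and 6.01% a higher one, so 8 of 46 members, 17.4%, is below the background. The largest was Pcdhac2, at -2.28 ± 0.38 (SE, limma, adjusted p = 0.000149). Its KO level was 0.189, 0.132 and 0.223 RPKM in mTEClo, above all WT mTEClo libraries, and below all WT libraries in mTEChi. Pcdhac2 reached 0.1 RPKM only in the WT mTEChi and KO mTEClo libraries. High values in these groups make the interaction negative, so the filter favoured such a value for this gene.

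Of the gamma genes, Pcdhgb4 (-0.99 ± 0.33) and Pcdhga10 (-0.99 ± 0.24) were called higher in KO mTEClo and not called in mTEChi. The other 5 were Pcdhgb5 (-0.85 ± 0.30), Pcdhb18 (-0.79 ± 0.28), Pcdhga5 (-0.69 ± 0.21), Pcdhgb2 (-0.58 ± 0.22) and Pcdhga11 (-0.43 ± 0.17). With quantile normalization no member had a lower interaction at adjusted or unadjusted p below 0.05 and 32 had a higher one, beside 18.3% and 23.4% of all tested genes. The count of 8 went to 4 or 5 when any of 6 libraries was left out: WT mTEClo replicate 1 or 3, KO mTEClo replicate 2 or 3, or KO mTEChi replicate 1 or 2. The cause of these differences was not tested.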

How the results depend on the processing

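The counts of members lower in WT mTEChi than in WT mTEClo or WT cTEC, and in KO mTEChi than in KO mTEClo, stayed within 1.5 times of the reported values under all alternatives run: with 1 library left out they were 32 to 37, 30 to 32 and 39 to 42. For the other counts, leaving out 1 library gave, lower in KO than WT, 14 to 16 in mTEChi, 0 to 2 in mTEClo and 2 to 15 in cTEC; higher, 1 to 3 in KO mTEClo. It gave 1 to 2 higher in WT mTEChi against mTEClo and 3 to 6 against cTEC, 9 to 10 higher and 4 to 5 lower in WT mTEClo against cTEC, and 4 to 8 lower interactions.

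For KO against WT mTEChi the lower count was 11 with a pseudocount of 1, 10 with the filter of 1 RPKM and 0 with quantile normalization, which gave 31 higher. For KO against WT mTEClo it was 1 with a pseudocount of 0.01, with no filter, with the filter of 1 RPKM and with quantile normalization, 6 with a pseudocount of 1 and 7 with centring on housekeeping genes; the higher count was 4 with a pseudocount of 1. For KO against WT cTEC the lower count was 5 with a pseudocount of 0.01, 15 with quantile normalization, 14 with centring and 0 with only those groups. The higher count of WT mTEChi against WT mTEClo was 0, and against WT cTEC 1, with the filter of 1 RPKM, and both were 0 with quantile normalization. For WT mTEClo against WT cTEC the lower count was 3 with centring and 3 with only those groups, and the higher count 4 with the filter of 1 RPKM. In KO mice 1 member was higher in mTEChi than in mTEClo with only those groups. The interaction count was 2 lower with centring, and with quantile normalization 0 lower and 32 higher. The filter of 1 RPKM tests fewer members; the other causes were not tested.

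Single values were checked for members that were called or named in a comparison, 178 in all. Among these, quantile normalization turned the direction of the log2 differences below. Values outside this check turned as well, such as Pcdhga1 in KO against WT mTEChi (-0.22 to 1.60) and Pcdha12 in WT mTEChi against mTEClo (0.48 to -1.09). In KO against WT mTEChi it gave 0.53 for Pcdha12, 0.11 for Pcdhac2, 0.12 for Pcdhb1, 0.48 for Pcdhb13, 0.95 for Pcdhb14, 0.35 for Pcdhb15, 0.89 for Pcdhb16, 0.03 for Pcdhb17, 0.83 for Pcdhb18, 1.11 for Pcdhb20, 0.83 for Pcdhb22, 0.15 for Pcdhb3, 0.60 for Pcdhb5, 0.69 for Pcdhb7, 0.45 for Pcdhb9, 0.59 for Pcdhga11, 0.72 for Pcdhga5 and 0.81 for Pcdhgb6. In WT mTEChi against mTEClo it gave -0.43 for Pcdhac2. In WT mTEChi against cTEC it gave -0.92 for Pcdha12, -0.22 for Pcdhac2, -1.04 for Pcdhb5, -0.74 for Pcdhga11 and -0.22 for Pcdhgc4. For the interaction it gave 0.80 for Pcdhb18, 0.56 for Pcdhga11, 0.81 for Pcdhga5, 1.14 for Pcdhgb2, 0.94 for Pcdhgb4, 1.02 for Pcdhgb5 and 0.14 for Pcdhgc3, which was 0.24 with centring. With 1 library left out, 3 values near 0 that were not called took either sign: the interaction of Pcdhgc3 was -0.075 to 0.030, Pcdhga12 in WT mTEChi against mTEClo -0.26 to 0.012, and Pcdhgc4 in KO mTEChi against mTEClo -0.0087 to 0.26.

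Replicate numbers are shared between groups, but the labels do not say what a number marks. Deviations of same-numbered libraries correlated at -0.303 to 0.168, and in 1 of 7 pairs of groups all were over 0.1. With a replicate block in the fit, the lower counts were 18, 2 and 8 for KO against WT in mTEChi, mTEClo and cTEC, 38 and 33 for WT mTEChi against mTEClo and cTEC, 41 in KO mice and 6 for the interaction, and 5 of 178 single values lost their call. The planned removal of bases on shared constant exons was not run: of all intervals only that of Pcdha2, which was too low to be tested, reaches a constant exon.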
